A study of Rattus norvegicus with 16 samples.

Results

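The genes described here are 8 targets and regulators of Wnt/β-catenin signalling around the central vein of the liver lobule: the secreted enhancer Rspo3, and Lgr5, Rnf43, Znrf3, Axin2, Tbx3, Lect2 and Slc13a3 of the pericentral hepatocytes. They were chosen by name, with earlier results of these data known. They were matched by gene symbol in the array annotation, and 8 of 8 were found among the 22093 genes measured. Each had 1 probe set, and for 8 of 8 the chromosome in the probe set identifier was that of the gene in the GRCr8 rat assembly. The livers came from male RccHan Wistar rats, 7 to 8 weeks old, that received untreated feed (control, 0 ppm) or feed with 3000 ppm phenformin for 3 or 14 days. Phenformin belongs to the biguanides, which lower blood glucose and inhibit respiratory complex I. Total RNA of 1 liver piece was hybridised to 1 single-colour whole-transcript array, with 4 biological replicates in each of 4 groups, so 16 arrays in all.

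A liver lobule is zoned, with periportal hepatocytes making urea and glucose and pericentral hepatocytes making glutamine and metabolising drugs. In mouse, endothelial cells of the central vein secrete Wnt2, Wnt9b and the enhancer Rspo3, and β-catenin is active in the hepatocytes next to them. R-spondins bind Lgr4 and Lgr5 and remove the ubiquitin ligases Rnf43 and Znrf3, which otherwise take the Frizzled receptors off the cell surface. Lgr5, Axin2, Rnf43 and Znrf3 are themselves switched on by β-catenin, so their mRNA is used as a readout of the pathway. The comparison of treated with control livers at each day asks whether this readout differs with the drug.

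The transcription factors of the pathway, TCF and LEF, bind a short motif beside their target genes. RefSeq promoter entries (GRCr8) were matched for 5 of the 8 genes, namely Axin2, Rnf43, Lect2, Slc13a3 and Rspo3. The motif spellings CTTTGAA and CTTTGAT were searched on both strands in the 250 bases before the start in each gene's first entry. Of 27457 such windows, 2081 (7.6%) held at least 1 match. The windows of Axin2 and Lect2 held a match and are shown, and those of Rnf43, Slc13a3 and Rspo3 held 0. Capitals mark the matches, and both windows are written 5′ to 3′ on the strand of the gene, chr10:94398535-94398784 (plus strand) for Axin2 and chr17:8049784-8050033 (plus strand) for Lect2.
Axin2: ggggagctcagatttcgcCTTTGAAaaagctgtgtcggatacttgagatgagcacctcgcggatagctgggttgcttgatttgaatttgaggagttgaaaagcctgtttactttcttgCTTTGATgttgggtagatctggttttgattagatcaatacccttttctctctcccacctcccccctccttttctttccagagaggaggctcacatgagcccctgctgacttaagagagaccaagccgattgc
Lect2: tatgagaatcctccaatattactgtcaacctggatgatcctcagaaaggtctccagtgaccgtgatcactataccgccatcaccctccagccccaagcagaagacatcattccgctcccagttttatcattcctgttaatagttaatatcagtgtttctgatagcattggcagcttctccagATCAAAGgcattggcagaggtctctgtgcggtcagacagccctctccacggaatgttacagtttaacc
Axin2 held 2 matches in the gene's own direction, which began 232 and 132 bases before its start. Lect2 held 1, spelled on the opposite strand, at 68 bases before its start. A match describes letters only, and binding was not measured.

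Phenformin-fed livers stood higher than controls for 7 of the 8 genes at both days. Taken by day, 0 of the 8 passed the test at day 3, where 0.249% of all genes were called higher and 0.901% lower, and 0 at day 14, where 0.145% were called higher and 0.177% lower. Across all genes, a positive difference was found for 52% at day 3 and 50% at day 14, and at both days together for 31.4%. Averaged over both days, in a contrast added after the values of each day had been seen, Tbx3 was 2.14-fold higher (95% interval 1.54 to 2.97), Znrf3 1.41-fold (1.19 to 1.68) and Rspo3 1.26-fold (1.13 to 1.40), and these 3 rose by limma, where 1.55% of all genes were called higher and 1.61% lower. The call of Tbx3 held in all alternatives run, whereas that of Znrf3 was lost in 5 of 16 fits without 1 array, with a block for replicate number (adjusted p = 0.0535) and over all probe sets (0.0907), and that of Rspo3 in 1 of 16 such fits (0.0529) and over all probe sets (0.103). At day 14 alone Tbx3 stood at 2.41-fold (1.52 to 3.83), Slc13a3 at 2.06-fold (1.47 to 2.89) and Lgr5 at 1.63-fold (1.26 to 2.09). Lect2 was the gene with a negative difference at both days.

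Values below are log2 intensities, each on its own probe set, so that levels are compared between groups and not between genes. Group means are given ± SD (n = 4 arrays), differences are treated minus control in log2 units with their 95% interval, and adjusted p-values are from limma with Benjamini-Hochberg adjustment over 22093 genes. A gene was called at an adjusted p under 0.05. The 4 arrays of a group are labelled biological replicates, and values are listed from replicate 1 to 4. The number of arrays limits the precision.

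**Figure D1:**
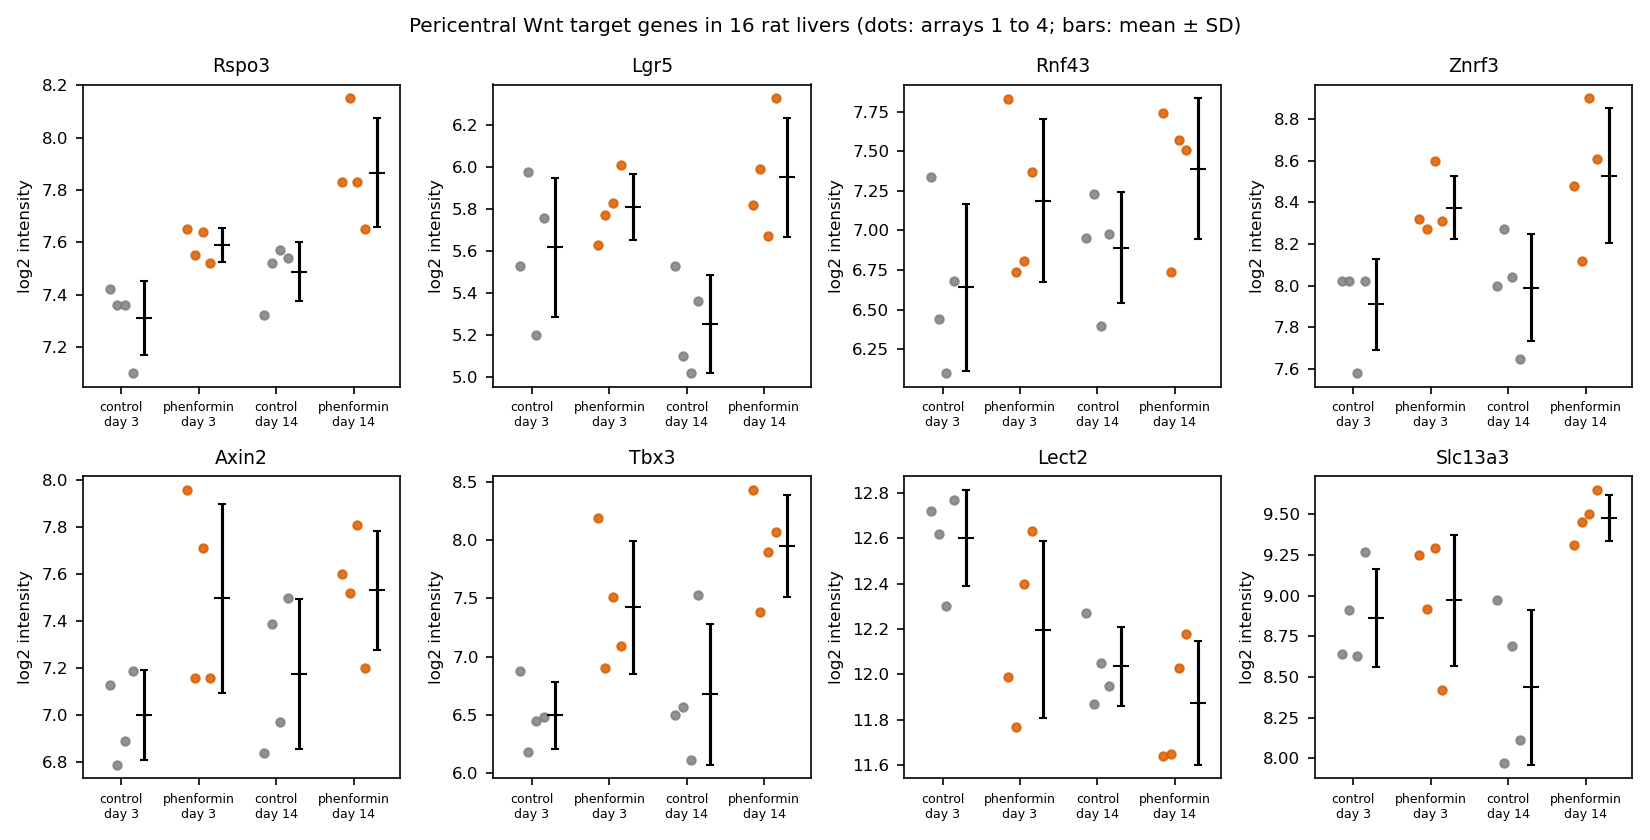
Log2 intensity (y axis) of the 8 genes in each group (x axis); dots are the 4 arrays of a group in replicate order, and the black bar is the mean ± SD. For Slc13a3 the 4 treated livers of day 14 lie between 9.31 and 9.65, above all 4 controls of that day (7.97 to 8.97).

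Rspo3 is the secreted enhancer at the top of the pathway. Its control livers of day 3 read 7.42, 7.36, 7.36 and 7.10, and the treated livers of that day 7.65, 7.55, 7.64 and 7.52. At day 14 the controls read 7.32, 7.52, 7.57 and 7.54, and the treated livers 7.83, 8.15, 7.83 and 7.65. The treated arrays lay above the control arrays at each day with no overlap, by a small margin. The difference was 0.28 (0.06 to 0.50; adjusted p = 0.294) at day 3 and 0.38 (0.16 to 0.60; adjusted p = 0.132) at day 14. Group means ran from 7.86 ± 0.20 in treated livers of day 14 through 7.59 ± 0.06 in treated livers of day 3 and 7.49 ± 0.11 in controls of day 14 to 7.31 ± 0.14 in controls of day 3. The ranges of the lower 3 groups overlapped between neighbours, and the lowest treated liver of day 14 lay just above the highest of day 3.

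Lgr5, the R-spondin receptor, marks the hepatocytes closest to the central vein in mouse. At day 3 its controls read 5.53, 5.98, 5.20 and 5.76 and the treated livers 5.63, 5.77, 5.83 and 6.01, and the groups overlapped. At day 14 the controls read 5.53, 5.10, 5.02 and 5.36, and the treated livers, at 5.82, 5.99, 5.67 and 6.33, lay above all of them. The difference was 0.19 (-0.17 to 0.56; adjusted p = 0.787) at day 3 and 0.70 (0.34 to 1.07; adjusted p = 0.0989) at day 14. The controls of day 14 (5.25 ± 0.23) also stood below those of day 3 (5.62 ± 0.33), a difference of -0.37 (-0.73 to 0.00; adjusted p = 0.698), while treated means were 5.81 ± 0.16 and 5.95 ± 0.29. Neighbours in this order overlapped throughout. Lgr5 lay below the array's median gene on 12 of 16 arrays, and background signal at that level can make a fold too small.

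The ubiquitin ligases Rnf43 and Znrf3 remove Frizzled receptors and close the feedback loop. Znrf3 read 8.02, 8.02, 7.58 and 8.02 in controls of day 3 and 8.32, 8.27, 8.60 and 8.31 in treated livers, with no overlap. At day 14 it read 8.00, 8.27, 8.04 and 7.65 in controls and 8.48, 8.12, 8.90 and 8.61 in treated livers, where treated replicate 2 lay within the control range. The differences of Znrf3 were nearly the same size, 0.46 (0.12 to 0.81; adjusted p = 0.269) and 0.54 (0.19 to 0.88; adjusted p = 0.185). Rnf43 read 7.34, 6.44, 6.10 and 6.68 in controls of day 3 and 7.83, 6.74, 6.81 and 7.37 in treated livers. At day 14 its controls read 6.95, 7.23, 6.40 and 6.98 and its treated livers 7.74, 6.74, 7.57 and 7.51. The arrays of Rnf43 overlapped at both days, and its differences of 0.54 (-0.09 to 1.17; adjusted p = 0.567) and 0.50 (-0.13 to 1.13; adjusted p = 0.586) had intervals that held 0. Both ligases had the same order of group means, from treated livers of day 14 (Znrf3 8.53 ± 0.32, Rnf43 7.39 ± 0.44) and of day 3 (8.37 ± 0.16 and 7.19 ± 0.51) to controls of day 14 (7.99 ± 0.26 and 6.89 ± 0.35) and of day 3 (7.91 ± 0.22 and 6.64 ± 0.52), with overlap between all neighbours.

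Axin2, a scaffold of the complex that degrades β-catenin, is the most widely used feedback target. It read 7.13, 6.79, 6.89 and 7.19 in controls of day 3, against 7.96, 7.16, 7.71 and 7.16 in treated livers. Treated replicates 1 and 3 stood high, and replicates 2 and 4 lay inside the control range. At day 14 the controls read 6.84, 7.39, 6.97 and 7.50 and the treated livers 7.60, 7.52, 7.81 and 7.20, again with overlap. The difference was 0.50 (0.08 to 0.92; adjusted p = 0.347) at day 3 and 0.36 (-0.06 to 0.78; adjusted p = 0.546) at day 14. Its group means were 7.53 ± 0.25 and 7.50 ± 0.40 in treated livers of day 14 and day 3, and 7.18 ± 0.32 and 7.00 ± 0.19 in the controls of those days, and neighbours overlapped.

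Tbx3, a T-box transcription factor that β-catenin induces in mouse liver, had the largest differences of the 8 genes at both days. Its controls of day 3 read 6.88, 6.18, 6.45 and 6.48 and the treated livers 8.19, 6.90, 7.51 and 7.09. The groups did not overlap, although the lowest treated liver stood only just above the highest control. At day 14 the controls read 6.50, 6.57, 6.11 and 7.53 and the treated livers 8.43, 7.38, 7.90 and 8.07, with control replicate 4 above treated replicate 2. The differences were 0.93 (0.26 to 1.59; adjusted p = 0.243) and 1.27 (0.60 to 1.94; adjusted p = 0.1). Without control replicate 4 of day 14, the difference of that day was 1.55 and was called (adjusted p = 0.0274). Means ran from 7.95 ± 0.44 and 7.42 ± 0.57 in treated livers of day 14 and day 3 to 6.68 ± 0.60 and 6.50 ± 0.29 in the controls, with overlap between neighbours.

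Slc13a3 and Lect2 stand for what pericentral hepatocytes make. Slc13a3, a sodium-coupled carrier of dicarboxylates, read 8.64, 8.91, 8.63 and 9.27 in controls of day 3 and 9.25, 8.92, 9.29 and 8.42 in treated livers, so that both groups covered much the same range. At day 14 the controls read 8.97, 7.97, 8.69 and 8.11, and the treated livers, at 9.31, 9.45, 9.50 and 9.65, were above all controls and above all 12 other arrays. The difference was 0.11 (-0.38 to 0.59; adjusted p = 0.943) at day 3 and 1.04 (0.56 to 1.53; adjusted p = 0.0653) at day 14. From day 3 to day 14 the control mean went from 8.86 ± 0.30 to 8.43 ± 0.47 (-0.43, -0.92 to 0.06; adjusted p = 0.761) and the treated mean from 8.97 ± 0.40 to 9.48 ± 0.14 (0.51, 0.02 to 0.99; adjusted p = 0.625). The call of day 14 depended on other choices: it passed with the lowest 25% of genes left out (adjusted p = 0.0446), without control replicate 1 of day 14 (0.0394) and without treated replicate 4 of day 3 (0.0466).

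Lect2 encodes a secreted liver protein and is a β-catenin target in mouse liver. It read 12.72, 12.62, 12.30 and 12.77 in controls of day 3 and 11.99, 11.77, 12.40 and 12.63 in treated livers. At day 14 it read 12.27, 11.87, 12.05 and 11.95 in controls and 11.64, 11.65, 12.03 and 12.18 in treated livers. The groups overlapped at both days, and the differences were -0.41 (-0.79 to -0.02; adjusted p = 0.430) and -0.16 (-0.54 to 0.22; adjusted p = 0.828). Between controls, all 4 livers of day 14 (12.04 ± 0.17) lay below all 4 of day 3 (12.60 ± 0.21), a difference of -0.57 (-0.95 to -0.19; adjusted p = 0.355). The treated livers of day 3 stood between them, at 12.20 ± 0.39, and those of day 14 lowest, at 11.87 ± 0.27.

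Counted together, and by limma's unadjusted p under 0.05, 4 of the 8 genes passed at day 3 in the higher direction (Tbx3, Znrf3, Rspo3 and Axin2) and 1 in the lower (Lect2), against 4.78% and 5.86% of all genes. The treated arrays lay above the controls with no overlap for 3 of 8 (Tbx3, Znrf3 and Rspo3), against 3.51% of all genes. At day 14 an unadjusted p under 0.05 was found for 5 of 8 (Slc13a3, Lgr5, Tbx3, Rspo3 and Znrf3), all higher, against 6.51% of all genes higher. No overlap was found for 3 of 8 (Slc13a3, Lgr5 and Rspo3), against 2.79%. Rspo3 was the 1 gene of the 8 with no overlap at both days, as found for 0.616% of all genes. The median difference of the 8 was 0.37 at day 3 and 0.52 at day 14, where that of all genes was 0.01 and 0.00. Because the 8 were chosen with earlier results of these data known, these shares and medians are a description and not a test.

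Limma's interaction contrast (difference at day 14 less the day 3 difference) called 0 of the 8, where 0.00453% of all genes were called higher and 0% lower. The estimates for Slc13a3 and Lgr5 were 0.94 (0.25 to 1.62; adjusted p = 0.738) and 0.51 (-0.01 to 1.03; adjusted p = 1). For Tbx3, Znrf3, Rspo3, Lect2, Axin2 and Rnf43 the estimates lay between -0.14 and 0.34. Its unadjusted p was under 0.05 for 1 of the 8, Slc13a3, and in the higher direction for 2.78% of all genes. Between controls of the 2 days 0 of 8 were called (0.0498% of all genes higher, 0.353% lower), and an unadjusted p under 0.05 was found for 2, Lect2 and Lgr5, both lower at day 14, as for 4.68% of all genes. Lect2 was the 1 gene of the 8 without overlap there, against 2.96% of all genes in the lower direction. Between treated livers of the 2 days 0 of 8 were called, as was 0% of all genes in either direction, and Rspo3 and Slc13a3 had an unadjusted p under 0.05, both higher at day 14, as for 3.77% of all genes. The same 2 genes had no overlap there, against 2.1% of all genes. These comparisons share arrays with those of the drug.

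The contrast that averages the effects of both days was made within the same fit. In it limma called 3 of the 8 genes higher and 0 lower. Tbx3 was higher by 1.10 log2 units (0.63 to 1.57; adjusted p = 0.0146), Znrf3 by 0.50 (0.26 to 0.75; adjusted p = 0.0296) and Rspo3 by 0.33 (0.17 to 0.48; adjusted p = 0.0236). Close to the threshold were Lgr5 with 0.45 (0.19 to 0.70; adjusted p = 0.0602) and Slc13a3 with 0.57 (0.23 to 0.92; adjusted p = 0.0685). Axin2 stood at 0.43 (0.13 to 0.72; adjusted p = 0.119), Rnf43 at 0.52 (0.08 to 0.97; adjusted p = 0.220) and Lect2 at -0.28 (-0.55 to -0.01; adjusted p = 0.282). The call of Tbx3 held without each array in turn (highest adjusted p = 0.0338). That of Znrf3 was lost without control replicate 3 of day 3 (adjusted p = 0.055), control replicate 1 of day 14 (0.0504), treated replicates 1 and 3 of day 3 (0.0521 and 0.0598) and treated replicate 4 of day 14 (0.058), and that of Rspo3 without treated replicate 1 of day 3 (0.0529).

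**Figure D2:**
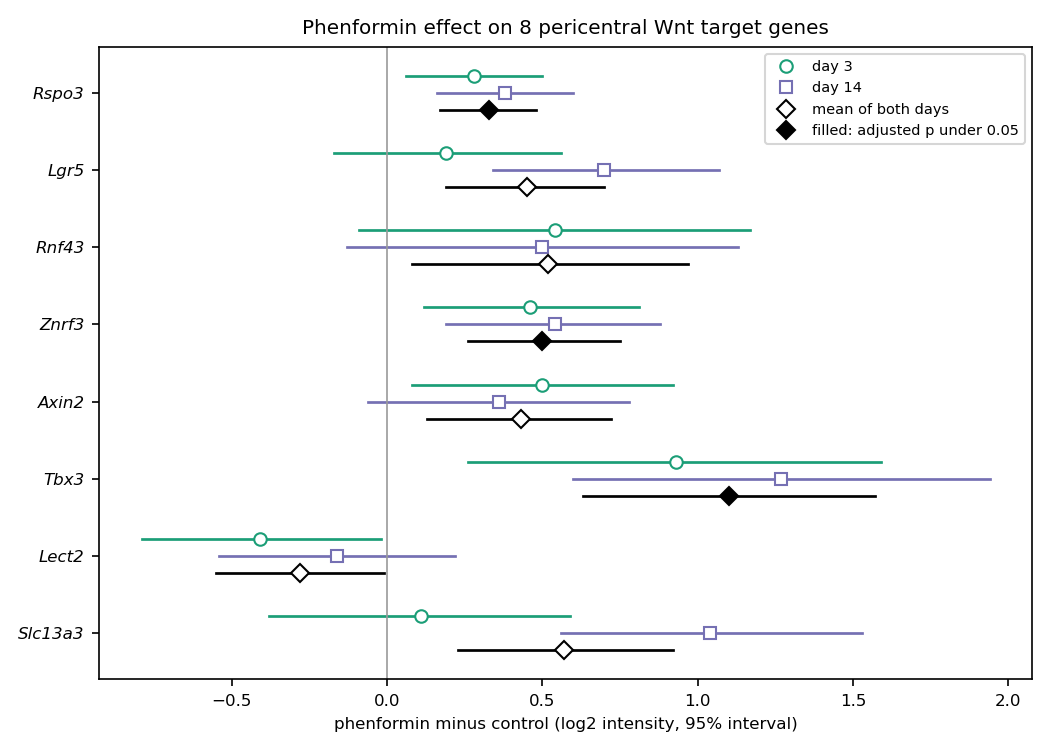
Difference between treated and control livers (x axis, log2 intensity) for the 8 genes (y axis), with points for day 3, day 14 and the mean of both days and lines for 95% intervals; filled points have an adjusted p under 0.05. Only Tbx3, Znrf3 and Rspo3 have filled points, all 3 for the mean of both days.

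The 8 genes did not vary as 1 block over the 16 arrays. By Pearson r of log2 values, given as a description of arrays that share 4 groups, Axin2 was closest to Tbx3 (0.80), Tbx3 to Axin2, Rnf43 to Tbx3 (0.78), Rspo3 to Tbx3 (0.64) and Znrf3 to Rnf43 (0.63). Lgr5 and Slc13a3 were closest to each other (0.65), and Lect2 ran from -0.72 with Rspo3 to 0.14. After the group means were subtracted, Axin2 and Tbx3 still had r = 0.68, as had Tbx3 and Rnf43. By the same measure Znrf3 and Rnf43 had 0.38, Lgr5 and Slc13a3 0.22, and Rspo3 and Tbx3 -0.07. Lect2 then had -0.49 with Rspo3 and 0.54 with Lgr5. Among named genes outside the 8, the profiles most like Tbx3 were those of Tfcp2 (0.89) and Ppcdc (0.87), and those most like Axin2 were Txlng (0.82) and Zfyve19 (0.82). Znrf3 was closest to Pdgfc (0.91) and Ppm1l (0.91), Rnf43 to Hjv (0.86) and Or2j3 (0.81), and Rspo3 to Adhfe1 (0.89) and Tbc1d15 (0.88). Lgr5 was closest to Vom1r80 (0.89) and Rreb1 (0.86), Slc13a3 to Trim25 (0.87) and Smco4 (0.86), and Lect2 to Fam3c (0.92) and Htt (0.91). These genes outside the 8 have the highest r picked from the named genes among 22093 measured, on 16 arrays. How high r would run by chance in such a pick was not tested. The values therefore do not show that these genes are regulated together with the 8.

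Called genes were few in the rest of the pathway at each day, and 0 among the 8. Of all genes, 0.249% were called higher and 0.901% lower at day 3, and 0.145% and 0.177% at day 14. Of 10 ligands and secretion factors, 0 passed at either day, with a median difference of -0.05 at day 3 and 0.02 at day 14. Wnt2, the central vein ligand, was at 0.03 ± 0.10 (difference ± SE, adjusted p = 0.958) at day 3 and, with no overlap, at 0.25 ± 0.10 (adjusted p = 0.347) at day 14. Its group means were 6.48 ± 0.15 (controls) and 6.52 ± 0.15 (treated) at day 3, and 6.55 ± 0.12 and 6.80 ± 0.10 at day 14. Wnt9b stood at 0.12 ± 0.11 and 0.07 ± 0.11, with group means between 4.39 and 4.51, below the median gene (5.86). Wls, the carrier that takes Wnt proteins to the cell surface, was at -0.13 ± 0.07 and -0.08 ± 0.07, and Wnt4 at -0.21 ± 0.10 and 0.14 ± 0.10. In this list 7 of 10 genes lay below the median gene, where background can hide a change.

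Receptors likewise had 0 of 11 past the threshold at either day (median difference -0.03 and 0.14). Their differences were positive for 4 of 11 at day 3 and 10 of 11 at day 14, against 52% and 50% of all genes. Lgr4, the R-spondin receptor found along the whole lobule in mouse, stood at 12.52 ± 0.19 in controls and 12.60 ± 0.20 in treated livers of day 3, and at 12.57 ± 0.25 and 12.65 ± 0.19 at day 14. Among Frizzled receptors the smallest p-values were those of Fzd5 (0.57 ± 0.24, adjusted p = 0.415) and Fzd3 (-0.21 ± 0.10, 0.454) at day 3 and of Fzd4 (0.78 ± 0.29, 0.314) and Fzd2 (0.27 ± 0.11, 0.385) at day 14. Inside the cell, 1 of 17 genes rose at day 3, 0 fell, and 0 passed at day 14 (median difference -0.01 and 0.08). That gene was Bcl9, a coactivator that binds β-catenin, with 6.60 ± 0.13 in controls and 6.99 ± 0.11 in treated livers of day 3 (0.39 ± 0.08, adjusted p = 0.0304) and 0.23 ± 0.08 (adjusted p = 0.268) at day 14. Its day 3 call was lost without 7 of the 8 arrays of that day in turn (adjusted p up to 0.103), on only the compared groups and over all probe sets (up to 0.174). Ctnnb1, which encodes β-catenin, stood between 12.28 and 12.36 in all 4 group means, with a difference of -0.08 ± 0.07 at each day (adjusted p = 0.803 and 0.793). Dvl2, a Dishevelled scaffold, was at -0.34 ± 0.08 (adjusted p = 0.0943) at day 14, and Tnks, a tankyrase that destabilises Axin proteins, at -0.14 ± 0.07 at day 3.

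Of 14 inhibitors of the pathway, secreted, membrane-bound or intracellular, 0 passed at either day (median difference -0.05 and 0.02). Among these 14 genes 10 lay below the median gene, where background can hide a change. Apcdd1, a membrane glycoprotein that binds Wnt proteins, read 5.43 ± 0.45 in controls and 5.95 ± 0.16 in treated livers of day 3, and 5.64 ± 0.22 and 6.59 ± 0.35 at day 14. Its difference was 0.52 ± 0.21 (adjusted p = 0.354) and then, with no overlap, 0.95 ± 0.21 (adjusted p = 0.0633). Notum, an esterase that inactivates Wnt proteins, was at 0.25 ± 0.12 (adjusted p = 0.438) at day 14, and Sfrp1, a secreted Wnt-binding protein, at -0.22 ± 0.11 (adjusted p = 0.506) at day 3. In the mean of both days Bcl9 (0.31, adjusted p = 0.00929) and Apcdd1 (0.73, adjusted p = 0.0128) rose and Dvl2 fell by 0.25 (adjusted p = 0.0319). Apcdd1 kept this call in all alternatives run. Bcl9 kept it without each array in turn and lost it over all probe sets (adjusted p = 0.0636), and Dvl2 lost it in 11 of 16 fits without 1 array (up to 0.0649) and over all probe sets (0.159).

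**Figure D3:**
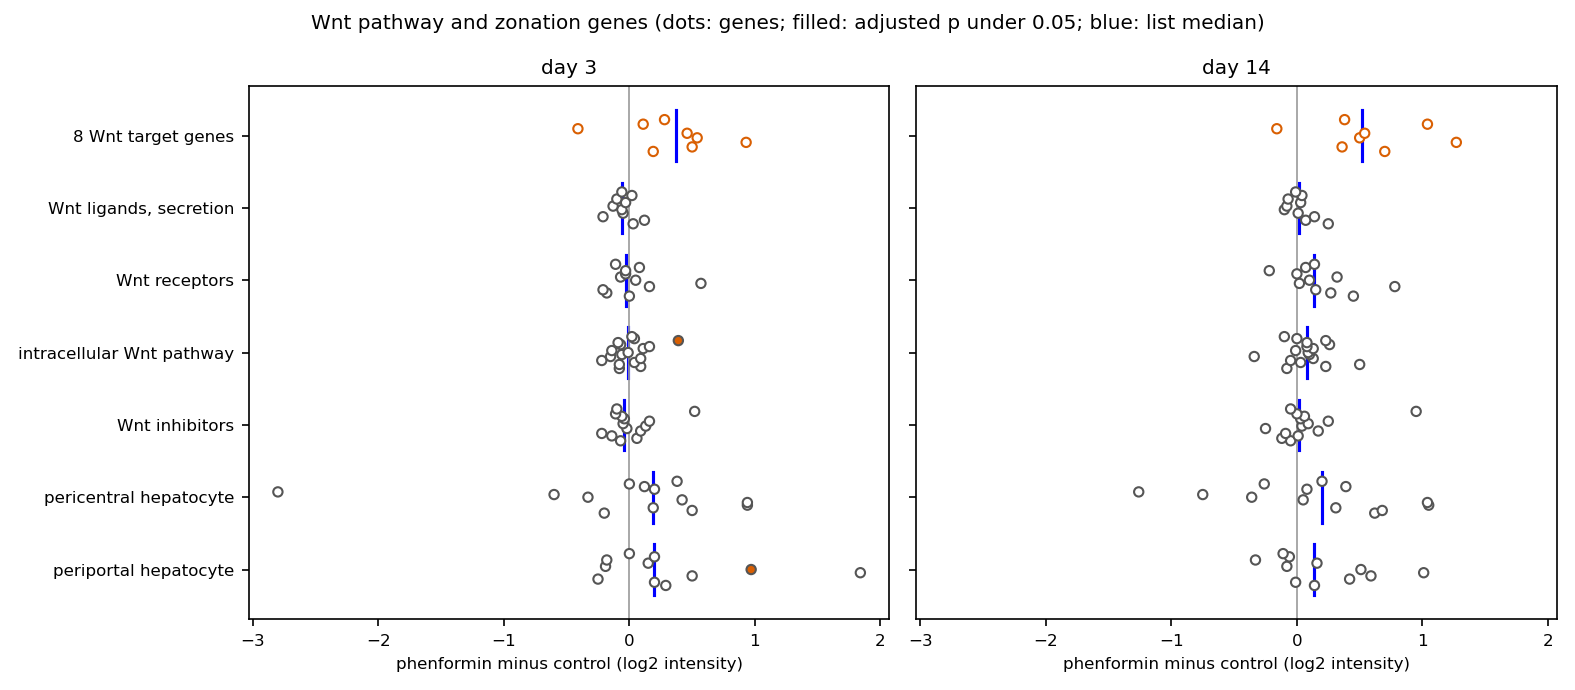
Difference between treated and control livers (x axis, log2 intensity) at day 3 and day 14 for the 8 genes and for the genes of 6 lists (y axis); each dot is a gene, filled where the adjusted p is under 0.05, and the blue line is the list's median. The 8 genes have a median of 0.37 and 0.52, and the filled dots are Bcl9 and Gls2 at day 3.

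Metabolic markers of the zones were set beside the 8 genes. Of 13 measured pericentral markers 0 passed at day 3 or day 14, with a median difference of 0.19 and 0.20 and 9 of 13 positive at each day. Glul, the glutamine synthetase of the hepatocytes that border the central vein, stood at 16.79 ± 0.26 in controls and 16.59 ± 0.47 in treated livers of day 3 (-0.20 ± 0.23, adjusted p = 0.857). At day 14 it stood at 16.42 ± 0.13 and 17.04 ± 0.42, with no overlap (0.62 ± 0.23, adjusted p = 0.292). Cyp2e1, a pericentral cytochrome that oxidises ethanol, did not overlap at either day, with 18.24 ± 0.04 and 18.73 ± 0.19 at day 3 (0.50 ± 0.17, adjusted p = 0.237) and 18.43 ± 0.46 and 19.11 ± 0.08 at day 14 (0.68 ± 0.17, adjusted p = 0.0984). In the opposite direction, Gulo of vitamin C synthesis was lower with no overlap at both days (-0.33 ± 0.10 and -0.36 ± 0.10, adjusted p = 0.154 and 0.132). Cyp7a1 of bile acid synthesis was at -2.80 ± 0.79 (adjusted p = 0.132) at day 3, with no overlap. It was at -1.26 ± 0.79 (adjusted p = 0.609) at day 14 and at -2.03 (adjusted p = 0.0632) in the mean of both days.

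In the mean of both days, 3 of the 13 pericentral markers rose and 1 fell, where 1.55% of all genes were called higher and 1.61% lower. By limma's unadjusted p under 0.05, 5 of the 13 were higher and 3 lower, so the list did not move in 1 direction. Cyp2e1 rose by 0.59 log2 units (0.34 to 0.84; adjusted p = 0.0134), and Oat, an ornithine aminotransferase, and Slc1a2, a glutamate carrier, both chosen after their values were seen, rose 1.99-fold each (adjusted p = 0.0292 and 0.0322). Leaving out 1 array at a time ended the call of Oat in 5 of 16 fits (adjusted p up to 0.0594) and that of Slc1a2 in 8 (up to 0.0659), and both, with that of Gulo, were lost over all probe sets (0.0761, 0.083 and 0.0693). Gulo fell by 0.35 log2 units (adjusted p = 0.0134). Of 11 periportal markers measured, 1 rose and 0 fell at day 3 and 0 passed at day 14, with a median difference of 0.20 and 0.14. The gene that rose was Gls2, the liver glutaminase, from 13.64 ± 0.27 to 14.61 ± 0.15 (0.97 ± 0.14, adjusted p = 0.00635). Hal, a histidine ammonia-lyase, stood at 0.50 ± 0.18 and 0.59 ± 0.18 (adjusted p = 0.287 and 0.191), and Ass1 of the urea cycle at 0.29 ± 0.10 (adjusted p = 0.227) at day 3. In the mean of both days, 2 of 11 periportal markers, Gls2 (0.74, adjusted p = 0.00157) and Hal (0.55, adjusted p = 0.0322), rose and 0 fell. The call of Hal was lost in 9 of the 16 fits without 1 array (adjusted p up to 0.0645) and over all probe sets (0.0943).

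In pieces of whole liver, more cells of a type and more RNA per cell cannot be told apart, and Rspo3 comes from other cells than the hepatocytes. At day 3 the 12 endothelial markers averaged 9.04 to 9.14 in controls and 8.91 to 8.94 in treated livers, and 1 of them, Stab2, a scavenger receptor of the sinusoid, fell (-0.56 ± 0.12, adjusted p = 0.0412). The 8 stellate cell markers averaged 8.72 to 8.92 in controls and 8.55 to 8.66 in treated livers at day 3, with 1, Colec11, falling (-0.44 ± 0.09, adjusted p = 0.0327). At day 14 endothelial markers averaged 9.06 to 9.29 in controls and 8.96 to 9.21 in treated livers, stellate markers 8.71 to 8.84 and 8.76 to 8.85, and 0 of either list passed. Differences were then positive for 5 of 8 stellate markers, among them Rgs5 (0.50 ± 0.16, adjusted p = 0.219). Without 1 array, the day 3 call of Stab2 was lost in 12 of 16 fits (adjusted p up to 0.141) and that of Colec11 in 6 (up to 0.118). Both calls were also lost with a block for replicate number, on only the compared groups and over all probe sets (up to 0.151 and 0.156), and that of Stab2 with quantile normalization and median centring. Kit, an endothelial receptor enriched near the central vein in mouse, was at -0.40 ± 0.11 (adjusted p = 0.140) at day 3 and -0.29 ± 0.11 (adjusted p = 0.326) at day 14. In the mean of both days, which called Rspo3 higher, 2 of 12 endothelial markers fell, Kit (-0.35, adjusted p = 0.0315) and Stab1 (-0.26, adjusted p = 0.0426), as did 2 of 8 stellate markers, Colec11 (-0.36, adjusted p = 0.00959) and Reln (-0.41, adjusted p = 0.0172), and 0 of either list rose. Without 1 array these calls of Kit and Stab1 were lost in 9 and 13 of 16 fits (adjusted p up to 0.0621 and 0.0911) and those of Colec11 and Reln in 0. Over all probe sets all 4 were lost, and Stab1 was lost with median centring and the block too.

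Of 7 fibroblast markers 5 fell at day 3 (Col1a1, Col1a2, Col3a1, Lum and Dcn) and 0 passed at day 14, and of 11 cell cycle genes 10 fell at day 3 and 0 passed at day 14. The call of Dcn was lost in 9 of 16 fits without 1 array (adjusted p up to 0.118), with median centring, the block, only the compared groups and all probe sets, and that of Col3a1 on only the compared groups (0.0571). Among the cell cycle genes Mki67, Ccnb1, Aurka and Plk1 lost theirs in 3, 9, 6 and 5 of the 16 fits. In the mean of both days 4 of 7 fibroblast markers fell (Col1a1, Col1a2, Col3a1 and Lum) and 0 rose. Of 11 cell cycle genes 4 fell there (Top2a, Cdk1, Rrm2 and Mcm5) and 0 rose. Top2a lost this call in 13 of 16 fits without 1 array, and over all probe sets Lum, Top2a and Rrm2 lost theirs. The controls of day 3 stood apart for the cell cycle list, with array means of 7.30 to 7.80 against 5.29 to 6.88 in the 3 other groups. They did so for the fibroblast list as well, with 7.72 to 7.95 against 7.12 to 7.46. The part of these markers in the differences of the 8 genes was not tested. General hepatocyte markers (5 measured), cholangiocyte markers (7) and Kupffer cell markers (8) had 0 genes past the threshold at either day, with median differences of -0.06 and -0.03, -0.10 and -0.06, and 0.34 and 0.02. In the mean of both days 1 of these markers rose, Epcam of the cholangiocytes (0.53, adjusted p = 0.0483), and 0 fell. Epcam lost this call in 13 of 16 fits without 1 array, with the block and over all probe sets. Hepatocyte markers averaged 15.99 to 16.32 over all arrays, as the tissue label has it, and every array had a median correlation of 0.991 to 0.994 with the others of its group.

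**Figure D4:**
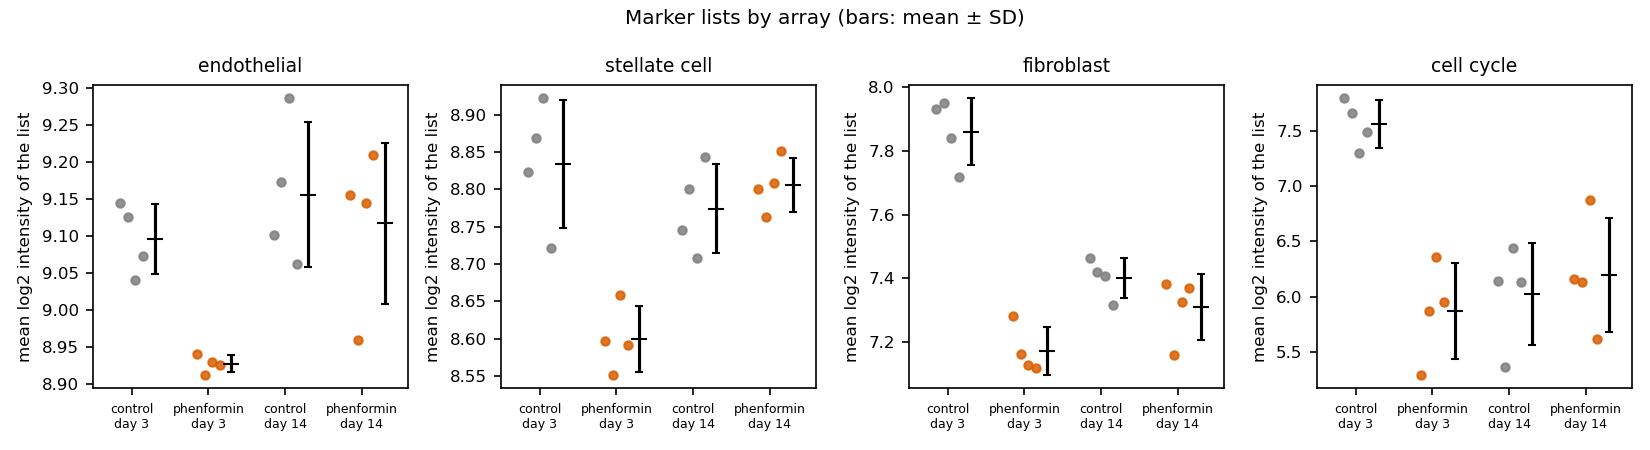
Mean log2 intensity (y axis) of the endothelial, stellate cell, fibroblast and cell cycle marker lists on each array, by group (x axis); dots are arrays and the black bar is the mean ± SD. The treated livers of day 3 lie below the controls of that day in all 4 panels, and for endothelial markers between 8.91 and 8.94.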

How the data were processed

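The series measured total RNA of rat liver on 16 single-colour whole-transcript arrays, 4 per group. The deposited values are intensities on a linear scale, made with RMA (background correction, normalization between arrays, summary of probes) per the submitters' processing notes; the sources used here name no program, version or probe set build. Their array medians lay between 30.89 and 34.46 and the highest log2 value was 19.93, and folds are ratios of deposited values on a scale not described further. The labels state 5 animals per group, housed 2 or 3 to a cage; 4 per group are analysed here, and cages are not given per array.

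Of 68842 probe sets, 23446 carry 1 gene symbol, 505 several and 44891 none here. The one-symbol probe set with the highest mean over 16 arrays stood for a gene (22093 genes). Intensities were converted to log2 with no pseudocount or filter. Group means were fitted with limma 3.58.1 under R 4.3.3, with 12 residual and 15.15 total degrees of freedom. A run on simulated data with independent noise required only that the mean size of added differences was recovered. It does not give the rate of false calls in these data. Detection calls were not used.

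The 8 genes and 13 gene lists were chosen with earlier results of these data known. Named from lists were called genes, the 2 smallest p-values per list and day, 6 fixed genes, and for each of the 8 its 2 most correlated genes; cell type and cell cycle lists are given mostly by counts. Alternatives were a trended robust prior, a filter on low values, quantile normalization, median centring, only the compared groups, array weights, a replicate block, means of probe sets, all probe sets, and leaving out each array. Replicate numbers are shared between groups, but the labels do not say what they mark, so arrays were not taken as pairs. Same-numbered arrays deviated together with r between -0.11 and 0.18, over 0.1 in 7 of 24 pairs. These values do not settle whether the numbers mark pairs, and fits with a block for replicate number are given below.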

Additional observations from a re-analysis of the deposited data

Results flagged for a closer look

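In 2 of 32 sets of 4 arrays (8 genes by 4 groups), 1 array lay far from its group, both for Znrf3 and both at day 3. Control replicate 3 read 7.58 where the nearest other control read 8.02, and treated replicate 3 read 8.60 where the nearest other treated liver read 8.32. Chance gives such a distance in about 1 of 20 sets.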

How the results depend on the processing

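The number of the 8 genes called stayed 0 at day 3, in the interaction, between controls and between treated livers of the 2 days in all alternatives run. At day 14 it was 0, and 1 with the lowest 25% of genes left out (Slc13a3), and it ran from 0 to 1 when 1 array was left out. The 1 was Slc13a3 without control replicate 1 of day 14 or treated replicate 4 of day 3, and Tbx3 without control replicate 4 of day 14. For the mean of both days, which was added after the data were seen, it was 3, and 4 with quantile normalization. It was 5 with the lowest 25% of genes left out, where fewer genes enter the adjustment, and 1 with all probe sets, where more do. Array weights added a call of Slc13a3 (adjusted p = 0.0404). Without 1 array the number ran from 1 to 4. It was 1 without treated replicate 1 of day 3. It was 4 without control replicate 2 of day 3, treated replicate 4 of day 3 or treated replicate 3 of day 14. The fit on only the compared groups cannot give the interaction or the mean of both days. The sign of 7 small differences, none called, depended on 1 array. Their ranges without 1 array were 0 to 0.29 for Slc13a3 at day 3, -0.25 to 0.01 for Axin2, -0.28 to 0.17 for Rnf43 and -0.05 to 0.21 for Znrf3 in the interaction, -0.1 to 0.37 for Tbx3 and -0.03 to 0.19 for Znrf3 between controls, and -0.08 to 0.19 for Axin2 between treated livers, where array weights gave -0.05. The cause was not tested. Of the other comparisons of single genes, 406 with a changed setting and 739 without 1 array kept their direction and their side of the threshold, 6 and 7 gained a call, and 3 and 6 lost one.

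With a block for replicate number, 0 of the 8 were called at day 3, 0 at day 14 and 3 in the mean of both days, where Lgr5 passed (adjusted p = 0.036) and Znrf3 did not (0.0535), and the block changed no other call of the 8. All genes called with the block were 225, 74 and 618 in these comparisons. Same-numbered arrays of different groups had a median correlation of deviations of 0.01, others -0.01, and 7 of 16 arrays correlated best with an array of their own number.

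Counts over all genes varied more. At day 3, 254 genes were called, against 405 with array weights, 106 with all probe sets and 102 to 277 without 1 array. At day 14 there were 71, against 141 with the lowest 25% left out, 23 on only the compared groups, 20 with all probe sets and 30 to 132 without 1 array. The interaction called 1, against 2 with array weights, 0 with the block or all probe sets, and 0 to 10 without 1 array. Between controls there were 89, against 149 with array weights, 47 with the block, 0 on only the compared groups or with all probe sets, and 0 to 110 without 1 array. Between treated livers there were 0, and 0 to 2 without 1 array. The mean of both days called 699, against 282 with all probe sets and 421 to 817 without 1 array. With 4 arrays a group and no detection calls used, small differences and dim genes such as Lgr5 and Wnt9b are the least certain.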
